A study of Mus musculus with 30 samples.

Results

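The comparison described here sets livers of mice given cisplatin under a pump that delivered acyl-CoA-binding protein (CDDP+ACBP) against livers of mice with the same pump and no cisplatin (ACBP). Its members were taken from the treatment labels and number 10 of the 30 libraries of the series, 5 in each group. All animals were wild-type female C57BL/6 J mice aged 8 weeks when an ALZET osmotic pump was placed. In the CDDP+ACBP group the pump held ACBP/DBI at 2.5 mg/mL and cisplatin was given 72 hours after placement. The ACBP group had that pump, with no anorexia model. A second pair of groups, CDDP and PBS, also 5 libraries each, had pumps filled with PBS, with cisplatin in the CDDP group at the same time and none in the PBS group. This pair shares no library with the first and shows the effect of the same drug without the protein. The labels give neither the cisplatin dose nor the time of sampling, and no group that only ate less stands beside the cisplatin groups. They do not say that every library came from its own mouse, so the tests below measure the spread between these libraries, which may be technical in part.

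Cisplatin is a platinum drug that crosslinks DNA. The damage stabilises the transcription factor p53, which raises inhibitors of the cell cycle, its own negative regulators and genes of cell death. ACBP, encoded by Dbi, binds acyl-CoA esters inside cells and also acts outside them as a signal that stimulates appetite. The liver holds, beside hepatocytes, a large resident macrophage population, the Kupffer cells, which clear particles from blood and make the subunits of complement C1q.

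Reads counted on genes ranged from 15521545 to 17354097 in CDDP+ACBP libraries and from 15202935 to 16797443 in ACBP libraries. Albumin (Alb) and the other hepatocyte markers were high in all 10 libraries, as the labelled tissue implies. Their summed level was 46728 to 105564 CPM in CDDP+ACBP libraries (median 90689) and 84557 to 119678 CPM in ACBP libraries. The library of ACBP replicate 4 held brain transcripts. Myelin basic protein (Mbp) stood there at 64.6 CPM (read counts scaled to a common library size), against 0.442 to 3.07 CPM in the other ACBP libraries, and the summed level of the 20 brain markers reached 365 CPM in that library. The main count, the list counts it changes and the called genes that lose their call are therefore also given without it. Skeletal muscle transcripts were high in CDDP+ACBP replicate 2 and ACBP replicate 2, with summed levels of up to 4061 CPM in the CDDP+ACBP group and up to 2531 CPM in the ACBP group. CDDP+ACBP replicate 3 stood farthest from its own group, at a chi-square per degree of freedom of up to 172.7 for pairs within CDDP+ACBP, against at most 53.2 for pairs within ACBP.

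Few genes passed the test under the ACBP pump. Among those that rose were 4 p53 target genes of the lists used here, and most of those that fell are known from macrophages. Of 16304 genes tested, 21 (0.129%) were called at an adjusted p under 0.05 with edgeR's quasi-likelihood test and Benjamini-Hochberg adjustment. Higher in CDDP+ACBP livers were 11 genes (0.0675%), and lower were 10 (0.0613%). Without ACBP replicate 4, 11 of 16570 genes were called (0.0664%), 5 higher (0.0302%) and 6 lower (0.0362%), and all 11 were among the 21. At an unadjusted edgeR p under 0.05 there were 328 higher genes (2.01%) and 462 lower genes (2.83%), 790 in all, against 703 of 16570 (4.24%) without ACBP replicate 4. The 5 CDDP+ACBP libraries lay wholly above the 5 ACBP libraries for 56 genes (0.343%) and wholly below them for 140 genes (0.859%), and 19 of the 21 called genes were among these. The count of 21 rests on the shared estimate of spread and on single libraries. When only the 10 libraries compared were fitted, 2 genes were called, of which only Eda2r was among the 21. Leaving out 1 library at a time from the full fit gave between 5 (without CDDP+ACBP replicate 1 or 3) and 39 (without CDDP+ACBP replicate 4 or CDDP replicate 5). With the muscle-rich libraries and ACBP replicate 4 left out, 0 were called by edgeR, with 554 at an unadjusted p under 0.05. DESeq2 called 91 genes and limma voom 70.

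Of the lists used here, that of p53 genes of cell cycle arrest and feedback held the most genes called higher. It also holds the receptor genes Eda2r and Tnfrsf10b. Of 25 listed genes tested, 3 were called higher (Eda2r, Tnfrsf10b and Mdm2) and none lower with edgeR, against 0.0675% of all genes called higher. Of these 3, Mdm2 is the feedback gene, and the arrest gene Cdkn1a was not called. At an unadjusted p under 0.05, 15 of the 25 were higher and 0 were lower, while DESeq2 and limma voom each called 8 higher and none lower. The median log2 fold change of the list was 0.95, against 0.03 over all genes tested. Without ACBP replicate 4 the median was 1.02 and 1 member, Eda2r, was called.

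Eda2r, a death-domain-lacking receptor of the tumour necrosis factor (TNF) family that binds ectodysplasin A2 and is a p53 target, rose most steadily (chrX:97333840-97377216, minus strand). Its level was 2.38, 3.51, 3.91, 2.45 and 1.75 CPM in CDDP+ACBP replicates 1 to 5, against 0.126, 0.192, 0.358, 0.181 and 0.307 CPM in ACBP replicates 1 to 5. The groups did not overlap, and the lowest CDDP+ACBP library was several times the highest ACBP library. The log2 fold change was 3.54 ± 0.52 (SE), with an edgeR adjusted p of 0.00248, or 0.0106 without ACBP replicate 4. Under the PBS pump the log2 fold change was 4.02, and the difference between the effects, -0.48 ± 0.73, was not past the threshold (edgeR adjusted p = 0.675).

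Mdm2 encodes the ubiquitin ligase that targets p53 for breakdown and closes its feedback loop (chr10:117688875-117710758, minus strand). It stood at 69.5, 60.1, 139.5, 46.2 and 51.5 CPM in CDDP+ACBP livers and at 41.6, 33.4, 30.4, 32.9 and 39.1 CPM in ACBP livers. The groups were apart, with CDDP+ACBP replicate 3 far above the rest. The log2 fold change of 1.05 ± 0.20 had an edgeR adjusted p of 0.0218, and of 0.0691 without ACBP replicate 4. Under the PBS pump the log2 fold change was 1.22.

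Cdkn1a encodes p21, the inhibitor of cyclin-dependent kinases that halts the cycle (chr17:29090976-29100727, plus strand). Its level was 63.2, 37.0, 52.8, 5.12 and 16.4 CPM in CDDP+ACBP livers and 10.3, 6.08, 1.97, 1.81 and 2.52 CPM in ACBP livers. CDDP+ACBP replicate 4 lay inside the ACBP range, and the other 4 CDDP+ACBP libraries lay above it. The log2 fold change of 2.95 ± 0.67 missed the threshold (edgeR adjusted p = 0.0748; 0.217 without ACBP replicate 4), while DESeq2 gave an adjusted p of 0.00764. Over all alternatives tried the adjusted p ran from 0.00764 to 0.8, with 6 of them under 0.05. In CDDP livers Cdkn1a averaged 311 ± 129 CPM, against 3.23 ± 2.93 CPM in PBS livers (SD, n = 5 each). The cisplatin effect on Cdkn1a differed between the pumps, by -3.64 ± 0.91 on the log2 scale (edgeR adjusted p = 0.00667).

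Several other genes of the p53 and DNA damage lists had positive fold changes that did not pass. Psrc1, a microtubule-associated protein and p53 target, stood at 2.38, 3.24, 8.91, 1.20 and 1.81 CPM in CDDP+ACBP livers, against 1.01, 0.128, 0.239, 0.543 and 0.369 CPM in ACBP livers, with no overlap and an edgeR adjusted p of 0.0649. Zmat3, an RNA-binding zinc finger protein, had 12.7, 10.9, 12.3, 4.16 and 6.68 CPM in CDDP+ACBP livers, against 4.73, 3.33, 2.81, 5.19 and 3.69 CPM in ACBP livers. CDDP+ACBP replicate 4 again lay inside the ACBP range, and the edgeR adjusted p for Zmat3 was 0.0748. Ccng1, which encodes cyclin G1, had a log2 fold change of 1.26 (edgeR adjusted p = 0.191), and Phlda3, a repressor of Akt signalling, one of 2.77 (edgeR adjusted p = 0.199). Polk, a DNA polymerase that copies past lesions, had a log2 fold change of 1.07 with no overlap between groups (edgeR adjusted p = 0.154).

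**Figure D1:**
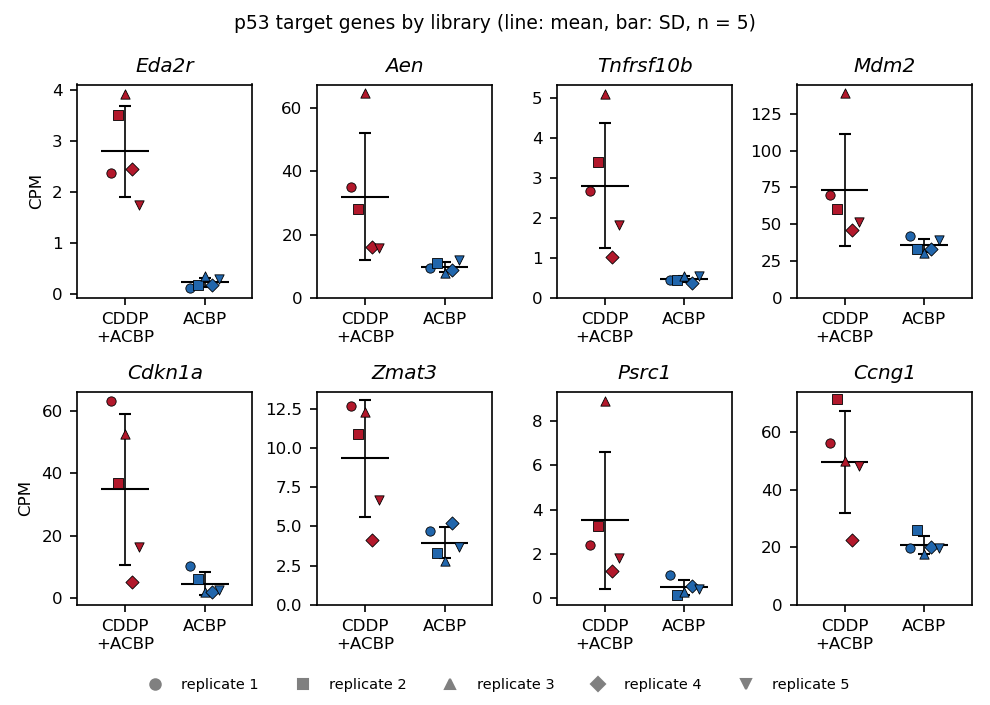
Levels of 8 p53 target genes in CPM (y axis, one scale per gene) in each CDDP+ACBP and ACBP library. Points are libraries with a symbol per replicate number, the line is the mean and the bar the SD (n = 5). Eda2r, Aen, Tnfrsf10b, Mdm2 and Psrc1 do not overlap between the groups, and CDDP+ACBP replicate 4 lies inside the ACBP range for Cdkn1a and Zmat3.

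Promoters of 3 of these genes are shown because they carry a match to the p53 response element, the short palindromic site to which p53 binds. The windows run from 250 bases before to 50 bases after the RefSeq start (build GRCm38.p6), and capitals mark the match, allowing at most 3 mismatches outside the conserved C and G of each repeat and a spacer of at most 1 base on either strand. The Cdkn1a window is chr17:29090729-29091028 (plus strand) and its match, with 1 mismatch, begins 51 bases before the start. The Ccng1 window is chr11:40755237-40755536 (minus strand) and its match, with 1 mismatch, begins 195 bases before the start. The Aen window is chr7:78895808-78896107 (plus strand) and its match, with 3 mismatches, begins 121 bases before the start.
Cdkn1a: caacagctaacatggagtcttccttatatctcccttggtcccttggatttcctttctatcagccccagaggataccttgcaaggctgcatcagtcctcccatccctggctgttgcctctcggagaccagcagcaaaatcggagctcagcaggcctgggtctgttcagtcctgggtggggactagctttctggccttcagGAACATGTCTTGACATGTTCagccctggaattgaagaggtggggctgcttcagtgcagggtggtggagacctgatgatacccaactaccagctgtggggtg
Ccng1: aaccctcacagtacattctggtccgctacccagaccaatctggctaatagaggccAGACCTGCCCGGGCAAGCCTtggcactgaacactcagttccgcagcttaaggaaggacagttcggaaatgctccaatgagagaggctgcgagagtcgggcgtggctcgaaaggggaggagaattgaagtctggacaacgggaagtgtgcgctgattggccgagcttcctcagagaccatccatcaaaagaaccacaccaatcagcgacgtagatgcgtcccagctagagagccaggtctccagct
Aen: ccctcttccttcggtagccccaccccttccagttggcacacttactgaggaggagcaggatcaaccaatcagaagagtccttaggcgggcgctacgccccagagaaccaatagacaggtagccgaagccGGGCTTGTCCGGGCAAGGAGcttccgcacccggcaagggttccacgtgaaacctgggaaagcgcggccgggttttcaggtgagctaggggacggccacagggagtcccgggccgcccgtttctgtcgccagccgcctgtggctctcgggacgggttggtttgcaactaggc
A match was found in 928 of 32851 promoter windows (2.82%). By gene, it was found in 9 of the 35 p53 genes with a window in the table (25.71%), Bax and Bbc3 among them, and in 884 of all 27025 genes with a window (3.27%). The windows of Eda2r, Mdm2 and Tnfrsf10b are not among the 9, which says only that these letters are not in them.

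Among p53 genes of cell death, 2 of 17 tested were called higher, Aen and Tnfrsf10b, and none lower with edgeR. Without ACBP replicate 4, 1 of them, Aen, was called. DESeq2 and limma voom also called 2. The median log2 fold change of this list was 0.15, and 4 members were higher at an unadjusted p under 0.05, with 0 lower.

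Aen encodes an exonuclease induced by p53 that acts in apoptosis (chr7:78895854-78911209, plus strand). It was at 35.2, 28.1, 64.7, 16.1 and 15.9 CPM in CDDP+ACBP livers and at 9.46, 10.9, 7.95, 8.69 and 11.8 CPM in ACBP livers. No CDDP+ACBP library fell below an ACBP library, and CDDP+ACBP replicate 3 was the highest. The log2 fold change was 1.71 ± 0.28, with an edgeR adjusted p of 0.00541, or 0.0299 without ACBP replicate 4.

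Tnfrsf10b is the mouse receptor for the death ligand TRAIL and was counted in both lists (chr14:69767472-69784411, plus strand). Levels were 2.67, 3.40, 5.11, 1.02 and 1.81 CPM in CDDP+ACBP livers and 0.442, 0.448, 0.538, 0.362 and 0.553 CPM in ACBP livers. The groups were apart, with CDDP+ACBP replicate 4 nearest to ACBP. Its log2 fold change was 2.56 ± 0.47 (edgeR adjusted p = 0.0156; 0.0565 without ACBP replicate 4). Bax, which permeabilises the mitochondrial outer membrane, overlapped between the groups, with a log2 fold change of 0.65 and an edgeR adjusted p of 0.362.

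How far the p53 genes moved differed from library to library within CDDP+ACBP. Of the 41 genes of both lists, 29 were called higher in CDDP than in PBS livers, against 23.1% of all genes tested. That contrast compares no CDDP+ACBP or ACBP library, but its filter and spread come from the fit of all 30 libraries. Their median log2 fold change was 0.93 under the ACBP pump and 1.78 under the PBS pump. The 29 were chosen by the PBS-pump effect, so the gap between these medians is not independent of that choice. Over all 25 tested genes of arrest and feedback the medians were 0.95 and 1.50, in the same order. For the 17 of cell death they were 0.15 and 0.92. The fold change was positive for 26 of the 29 under the ACBP pump, against 54.1% of all genes tested. Set against the ACBP mean, their median log2 ratio was 0.96, 0.44, 0.98, 0.13 and 0.53 in CDDP+ACBP replicates 1 to 5, and lay between -0.12 and -0.01 in the ACBP libraries. The ACBP libraries make up that mean, which draws their medians toward 0. CDDP+ACBP replicates 1 and 3 were highest, and CDDP+ACBP replicate 4 was close to the ACBP libraries. Replicate 3 was the highest CDDP+ACBP library for 15 of the 29 genes, and replicate 4 the lowest for 18. For 9 of the 29 genes the cisplatin effect was smaller under the ACBP pump than under the PBS pump by the test of the difference. Over all genes tested, that test called 11.3% lower. It uses the CDDP and PBS libraries by which the 29 were chosen, so the count of 9 is not independent of that choice.

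**Figure D2:**
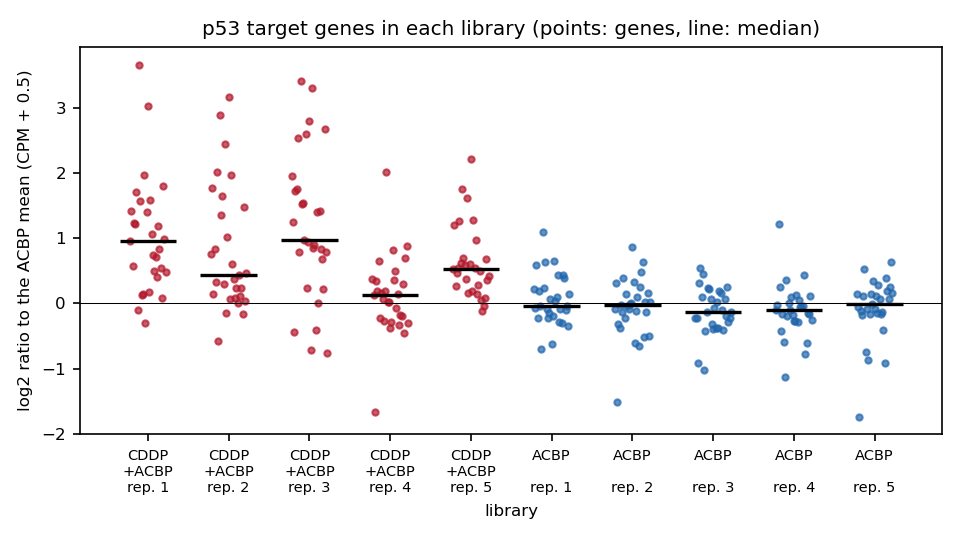
Log2 ratio to the ACBP mean (y axis, 0.5 CPM added to both) of the 29 p53 genes called higher in CDDP than in PBS livers, for each CDDP+ACBP and ACBP library (x axis). Points are genes and lines are medians, which run from 0.13 to 0.98 in CDDP+ACBP libraries and from -0.12 to -0.01 in ACBP libraries. The ACBP libraries make up the mean used, which draws their medians toward 0.

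Of the lists used here, that of Kupffer cells and other macrophages held the most genes called lower. Of 17 markers tested, 6 were called lower and none higher with edgeR, against 0.0613% of all genes called lower. At an unadjusted p under 0.05, 13 were lower and 0 higher, and 12 had no overlap between the groups. The median log2 fold change of the list was -0.89. Without ACBP replicate 4, 5 were called and the median was -0.89. With CDDP+ACBP replicate 3 left out 1 was called, and with CDDP+ACBP replicate 1 left out none was called. Under the PBS pump 9 of the 17 were called lower and 2 higher with edgeR, against 18.3% and 23.1% of all genes. The list median there was -0.695. The summed level of the markers was 343, 360, 276, 429 and 387 CPM in CDDP+ACBP livers and 603, 649, 552, 551 and 696 CPM in ACBP livers. All 5 CDDP+ACBP libraries were lower, and none of the 17 markers was at 0. In bulk tissue fewer cells of a type and less RNA per cell cannot be told apart.

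Several of these genes encode receptors. Csf1r, the receptor for the growth factor on which tissue macrophages depend, stood at 26.1, 21, 34.7, 33.8 and 27.7 CPM in CDDP+ACBP livers and at 48.5, 49.0, 48.4, 44.1 and 55.1 CPM in ACBP livers. The groups were well apart and the ACBP libraries close together. Its log2 fold change was -0.77 ± 0.14 (edgeR adjusted p = 0.0143; 0.0294 without ACBP replicate 4), beside -0.86 under the PBS pump. Timd4, a receptor for phosphatidylserine on resident Kupffer cells, was at 2.14, 3.93, 2.39, 2.50 and 3.44 CPM in CDDP+ACBP livers and at 6.69, 7.68, 5.50, 6.4 and 7.92 CPM in ACBP livers. No library crossed over, and the log2 fold change of -1.25 ± 0.24 had an edgeR adjusted p of 0.0218, or 0.0422 without ACBP replicate 4. Cd163, the scavenger receptor for haemoglobin bound to haptoglobin, had a log2 fold change of -1.17 ± 0.23 (edgeR adjusted p = 0.0261; 0.0691 without ACBP replicate 4).

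The chains of C1q, which starts the classical complement pathway, lie next to each other on the minus strand of chromosome 4 and fell together. C1qa (chr4:136895917-136898803) was at 28.3, 43.1, 18.3, 30.8 and 39.4 CPM in CDDP+ACBP livers and at 69.1, 74.7, 58.7, 56.8 and 74.6 CPM in ACBP livers. C1qb (chr4:136880129-136886187) was at 15.9, 21.3, 13.1, 19.1 and 22.8 CPM in CDDP+ACBP livers and at 40.4, 37.6, 33.2, 37.4 and 35.9 CPM in ACBP livers. C1qc (chr4:136889804-136893065) was at 17.8, 22.8, 6.47, 13.7 and 18.9 CPM in CDDP+ACBP livers and at 34.9, 33.8, 34.1, 27.3 and 40.5 CPM in ACBP livers. For each chain every CDDP+ACBP library was below every ACBP library, and CDDP+ACBP replicate 3 was the lowest. The log2 fold changes were -1.06 ± 0.21 for C1qa, -1.0 ± 0.18 for C1qb and -1.10 ± 0.22 for C1qc, with edgeR adjusted p of 0.0218, 0.0143 and 0.0324. Under the PBS pump the same values were -0.69, -0.17 and -0.40, of which the one for C1qa was called. The effect on C1qb differed between the pumps by -0.83 ± 0.25 (edgeR adjusted p = 0.021; 0.0318 without ACBP replicate 4), while the difference was not past the threshold for C1qa and C1qc.

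Clec4f, a lectin found on Kupffer cells, had 60.6, 63.0, 68.7, 111 and 79.9 CPM in CDDP+ACBP livers and 152, 183, 134, 129 and 161 CPM in ACBP livers. The groups did not overlap, yet the log2 fold change of -0.99 missed the threshold (edgeR adjusted p = 0.108), and it differed from the -1.95 seen under the PBS pump (edgeR adjusted p = 0.041). Lyz2, macrophage lysozyme, had a log2 fold change of -0.81 under the ACBP pump and of 0.64 under the PBS pump, and this difference was called (edgeR adjusted p = 0.03). Outside the marker list, 3 further called genes are known from myeloid cells, and apart from Fcer1g they were chosen after their values were seen. Fcer1g, the signalling chain of Fc receptors, was at 6.42, 9.24, 6.2, 7.29 and 7.91 CPM in CDDP+ACBP livers and at 16.1, 17.9, 16.5, 12.6 and 15.2 CPM in ACBP livers. Its groups were apart, with a log2 fold change of -1.08 ± 0.21 (edgeR adjusted p = 0.0218). The phagosomal metal transporter Slc11a1 fell by 1.16 on the log2 scale (edgeR adjusted p = 0.0457), and the ADP receptor P2ry13 by 1.79 (edgeR adjusted p = 0.043). Neither passed without ACBP replicate 4, each at an adjusted p of 0.0691.

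**Figure D3:**
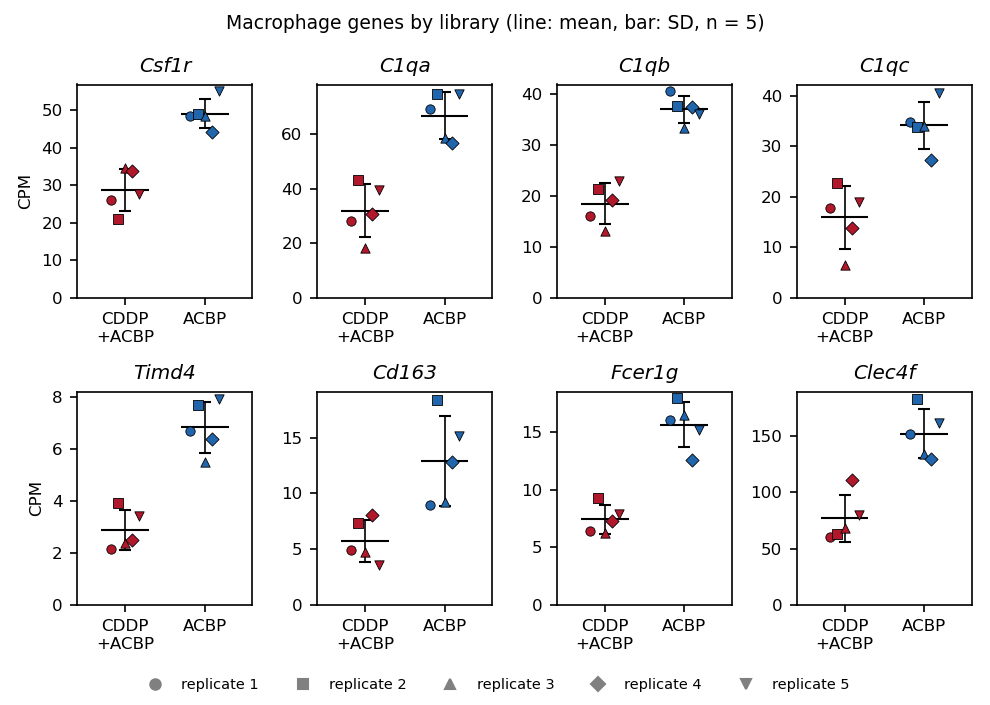
Levels of 8 macrophage genes in CPM (y axis from 0, one scale per gene) in each CDDP+ACBP and ACBP library. Points are libraries with a symbol per replicate number, the line is the mean and the bar the SD (n = 5). In all 8 panels every CDDP+ACBP library lies below every ACBP library.

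No other cell type list had a called member with edgeR. The 17 markers of sinusoidal endothelium had a median log2 fold change of 0.002 and 0 members past an unadjusted p of 0.05, and DESeq2 and limma voom called 0. Stellate cell markers had a median of -0.24, with 2 of 16 lower at an unadjusted p under 0.05, and 0 called by DESeq2 and limma voom. T and NK cell markers had a median of -0.32 over 12 genes, and B and plasma cell markers one of 0.09 over 12 genes, with 0 in either list past an unadjusted p of 0.05. For the hepatocyte markers the median was -0.10 over 11 genes, also with 0 past that limit. Adipose markers had positive fold changes in 7 of 7 genes tested, with a median of 2.17 and 2 members higher at an unadjusted p under 0.05. Their summed level overlapped between the groups, at 8.77 to 71.0 CPM in CDDP+ACBP livers and 6.70 to 32.5 CPM in ACBP livers, and their part in the results was not tested. Brain markers had a median of -1.64 over 11 genes, against -0.12 without ACBP replicate 4. With that library in, 5 of the 11 were lower at an unadjusted p under 0.05, and 1 was called lower by DESeq2.

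The other called genes were mostly low and, apart from Gria3, are named after their values were seen. Gria3, a subunit of glutamate receptors of the AMPA type, was at 9.62, 10.5, 29.8, 4.73 and 8.10 CPM in CDDP+ACBP livers and at 1.83, 0.512, 0.717, 1.87 and 1.23 CPM in ACBP livers. The groups were apart, with CDDP+ACBP replicate 3 the highest. Its log2 fold change was 3.34 ± 0.51 (edgeR adjusted p = 0.0033; 0.0106 without ACBP replicate 4), smaller than the 5.46 under the PBS pump by -2.12 ± 0.72 (edgeR adjusted p = 0.037). That difference did not pass without ACBP replicate 4 (edgeR adjusted p = 0.0734). The long noncoding RNA 1700061I17Rik was at 7.01, 7.01, 14.5, 3.25 and 12.6 CPM in CDDP+ACBP livers and at 1.39, 0.128, 1.25, 0.543 and 1.6 CPM in ACBP livers. The groups were again apart, and its log2 fold change was 3.16 under the ACBP pump (edgeR adjusted p = 0.00399; 0.0294 without ACBP replicate 4) and 1.29 under the PBS pump. Atp8b5, a P4-ATPase of the family that moves phospholipids across membranes, had a log2 fold change of 2.47 (edgeR adjusted p = 0.0156), and Mybl1, a transcription factor related to c-Myb, one of 3.01 with overlapping groups (edgeR adjusted p = 0.0261). Without ACBP replicate 4 neither was called, at edgeR adjusted p of 0.0658 for Atp8b5 and 0.0842 for Mybl1. Syt12, a synaptotagmin, rose by 1.65 on the log2 scale with overlapping groups (edgeR adjusted p = 0.0218). Of the 21 called genes, Syt12, Csf1r and P2ry13 overlap another annotated gene on the opposite strand, and since the strand setting of the counting is not known, reads of the partners A930001C03Rik, Hmgxb3 and Med12l may be shared with them. The provisional transcripts Gm9949 and Gm37795 were also called higher, at log2 fold changes of 4.02 and 3.17, but not without ACBP replicate 4 (edgeR adjusted p = 0.145 and 0.165). Gm37795 overlaps the annotated gene Mir34a on the same strand. Rims3, which acts in synaptic vesicle release, was called lower at -2.02 (edgeR adjusted p = 0.043). Its level in ACBP replicate 4, the library with brain transcripts, was 8.51 CPM, against 1.6 to 3.28 CPM in the other ACBP libraries, and without that library its adjusted p was 0.286.

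The same drug called far more genes under the PBS pump. There, 6756 of the 16304 genes were called with edgeR (41.4%), 3771 higher (23.1%) and 2985 lower (18.3%) in CDDP than in PBS livers. Of the 21 genes called under the ACBP pump, 18 were called with the same sign under the PBS pump and 0 with the opposite sign, which is 85.7% of the smaller list and 0.266% of the larger. The 3771 genes that rose under the PBS pump had a median log2 fold change of 0.05 under the ACBP pump, against 0.95 under the PBS pump, and 60.9% of them were above 0. For the 2985 genes that fell under the PBS pump the medians were -0.04 under the ACBP pump and -1.11 under the PBS pump. Both sets were chosen by the PBS-pump effect, so their medians under that pump are not independent of the choice. The test of the difference between the effects called 3216 genes (19.7%), 1367 with a higher effect under the ACBP pump (8.38%) and 1849 with a lower one (11.3%). Without ACBP replicate 4 it called 2845 of 16570 genes (17.2%). Of these 3216 genes, 3140 were also called in CDDP against PBS, and for all 3140 the difference had the sign opposite to the effect under the PBS pump. Both tests use the CDDP and PBS libraries, so this count is not independent of the PBS-pump effect.

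**Figure D4:**
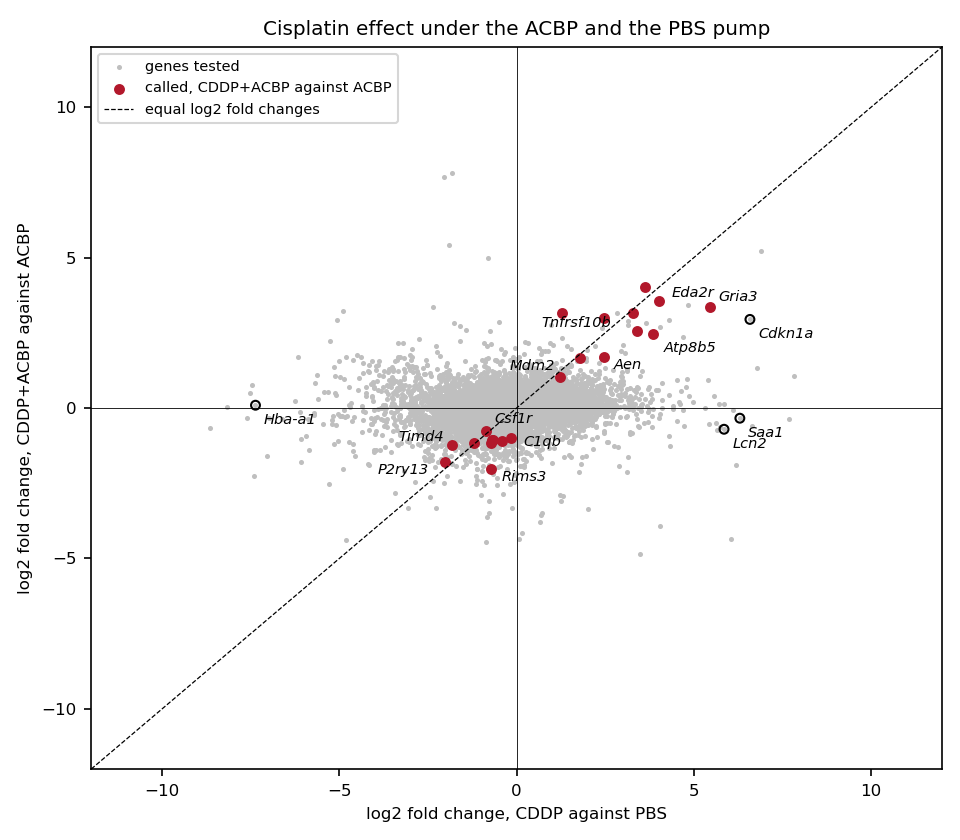
Log2 fold change of each of the 16304 genes tested, CDDP+ACBP against ACBP (y axis) over CDDP against PBS (x axis). Red points are the 21 genes called in CDDP+ACBP against ACBP, open circles are genes named in the text, and the dashed line marks equal values. Most genes lie near 0 on the y axis whatever their value on the x axis, while Eda2r, Mdm2, Csf1r and P2ry13 lie near the line.

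Several gene groups with many calls under the PBS pump held no gene called by edgeR under the ACBP pump. Acute phase genes encode proteins that the liver secretes into plasma in inflammation. Against 23.1% of all genes tested, 22 of the 26 members were called higher in CDDP than in PBS livers. Under the ACBP pump their median log2 fold change was -0.26, against 1.83 under the PBS pump, and 0 members passed an unadjusted p of 0.05 or were called by DESeq2 or limma voom. The difference between the effects was called for 19 of the 26, each with a lower effect under the ACBP pump, against 11.3% of all genes. Serpina3n, a protease inhibitor of this group, was at 278, 274, 234, 137 and 228 CPM in CDDP+ACBP livers and at 146, 211, 153, 154 and 174 CPM in ACBP livers. The groups overlapped through CDDP+ACBP replicate 4, and the log2 fold change was 0.46, against 3.51 under the PBS pump.

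Cytosolic ribosomal protein genes had 27 of 28 members called higher in CDDP against PBS, against 23.1% of all genes. The difference between the effects was called for 27, each with a lower effect under the ACBP pump, against 11.3% of all genes. The median log2 fold change of the 28 was -0.15 under the ACBP pump and 1.34 under the PBS pump. Under the ACBP pump 0 were higher and 1 lower at an unadjusted p under 0.05. All 12 genes of the mitochondrial genome tested were called lower in CDDP against PBS, with a median of -1.66, against 18.3% of all genes. The difference was called for 7, each with a higher effect under the ACBP pump, against 8.38% of all genes. Under the ACBP pump the median of the 12 was -0.11, with 1 gene higher at an unadjusted p under 0.05. The share of reads on mitochondrial genes was 5.43, 7.64, 12.6, 11.9 and 8.32% in CDDP+ACBP libraries and 10.6, 8.37, 9.88, 11.7 and 8.30% in ACBP libraries. CDDP+ACBP replicates 1 and 2 lay at the low end and replicate 3 at the top of the 10. In CDDP libraries that share was 2.74 to 3.81%, against 9.24 to 13.6% in PBS libraries, so that every CDDP library lay below every CDDP+ACBP and ACBP library.

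Interferon-stimulated genes had a median log2 fold change of -0.40 over 34 genes under the ACBP pump and of -1.16 under the PBS pump. Under the PBS pump 26 were called lower, against 18.3% of all genes. No member was called under the ACBP pump with edgeR, against 2 lower with DESeq2 and 1 with limma voom, and 8 were lower and 0 higher at an unadjusted p under 0.05. Irf7, a transcription factor that drives interferon production, was at 44.3, 48.2, 51.6, 53.8 and 56.3 CPM in CDDP+ACBP livers and at 79.4, 76.9, 71.8, 76.1 and 77.3 CPM in ACBP livers. The groups did not overlap, but the log2 fold change of -0.59 missed the threshold (edgeR adjusted p = 0.199). Genes of MHC class II, which present peptides to helper T cells, had a median of -0.59 over 10 genes, with 3 lower at an unadjusted p under 0.05 and 1 called lower by limma voom. Their invariant chain Cd74 was at 20.1, 41.8, 26.1, 28.9 and 29.6 CPM in CDDP+ACBP livers and at 58.8, 58.0, 94.8, 50.1 and 51.0 CPM in ACBP livers. These groups also stood apart, with an edgeR adjusted p of 0.509. Macrophages carry MHC class II too, and the summed macrophage markers were lower in every CDDP+ACBP library, but their part in these values was not tested.

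Genes expressed more in male than in female liver had a median log2 fold change of -0.61 over 23 genes, with 8 lower and 1 higher at an unadjusted p under 0.05. None was called with edgeR, against 2 lower with DESeq2 and 1 lower with limma voom. Under the PBS pump the median of this list was -1.20. There edgeR called 12 members lower and 5 higher, against 18.3% and 23.1% of all genes. Serpina1e, of the alpha-1-antitrypsin family, was at 8.08, 19.4, 15.6, 39.2 and 35.6 CPM in CDDP+ACBP livers and at 75.5, 132, 640, 95.0 and 258 CPM in ACBP livers. All CDDP+ACBP libraries were lower, at a log2 fold change of -3.35 (edgeR adjusted p = 0.108), against 2.01 under the PBS pump, and the difference was called (edgeR adjusted p = 0.0016). Members of this family are near-identical copies, so reads may be split among them. NRF2 targets, which detoxify reactive compounds, had 16 of 25 members called higher under the PBS pump, against 23.1% of all genes. Under the ACBP pump the median of the 25 was 0.30, with 2 members higher at an unadjusted p under 0.05. ATF4 targets (27 genes), genes of the unfolded protein response (22), glucocorticoid targets (24) and cholesterol synthesis (25) had medians of -0.12, 0.18, 0.05 and -0.005, with none called by edgeR. Of DNA repair and damage genes, 4 of 29 were higher and 1 lower at an unadjusted p under 0.05, with a median of 0.09, none called by edgeR and 1 called higher by DESeq2. The 27 genes of the cell cycle had a median of 0.001, with 0 higher and 1 lower at that limit.

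**Figure D5:**
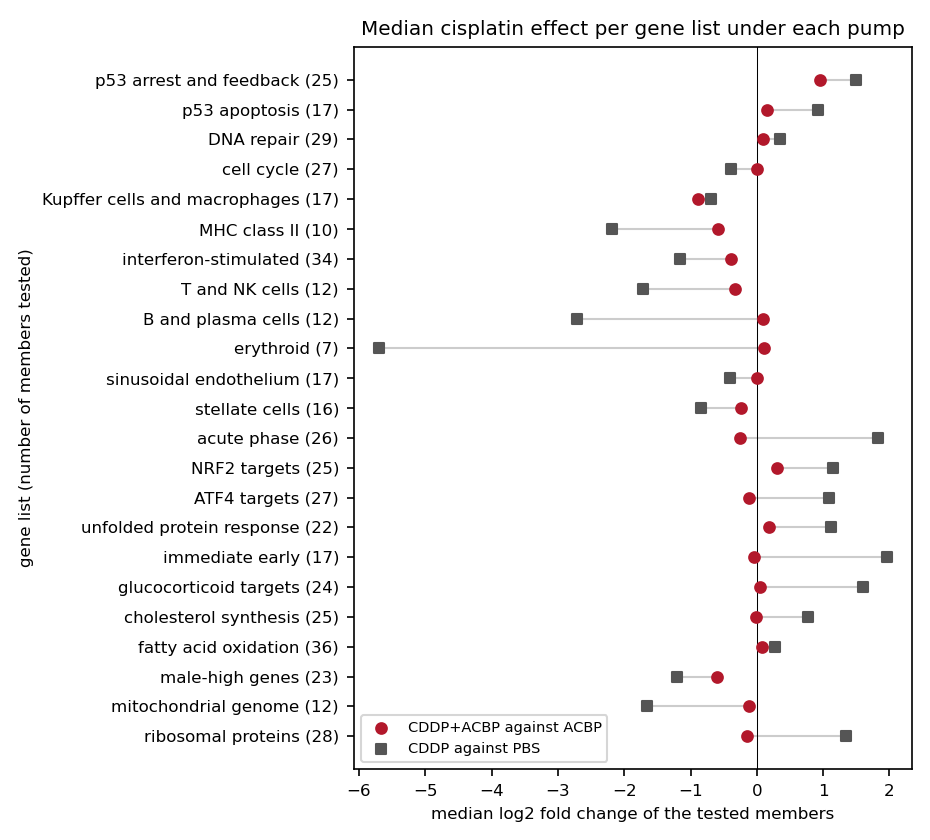
Median log2 fold change (x axis) of the tested members of 23 gene lists (y axis, number tested in brackets), for CDDP+ACBP against ACBP (red circles) and CDDP against PBS (grey squares). Under the ACBP pump the p53 arrest and macrophage lists have the medians farthest from 0, at 0.95 and -0.89. Male-high genes, MHC class II, interferon-stimulated genes and T and NK cells stand at -0.61, -0.59, -0.40 and -0.32. The acute phase and ribosomal protein lists stand at -0.26 and -0.15 there.

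Genes with the widest gap between the effects were mostly those with a large effect under the PBS pump. Lcn2, the siderophore-binding lipocalin, was at 18.1, 30.5, 13.5, 10.4 and 25.3 CPM in CDDP+ACBP livers and at 12.2, 89.0, 19.5, 29.4 and 9.64 CPM in ACBP livers. The groups overlapped, with the highest level in ACBP replicate 2. In CDDP livers it ranged from 109 to 1902 CPM, against 7.64 to 14.4 CPM in PBS livers, and the effects differed by -6.56 ± 0.89 (edgeR adjusted p = 3.407e-05). Of the serum amyloid genes, whose close copies may share reads, Saa1 differed by -6.64 and Saa2 by -7.24. Both were highest in CDDP replicate 5, at 3732 CPM for Saa1 and 2984 CPM for Saa2. The other CDDP libraries held 18.4 to 262 CPM of Saa1 and 7.35 to 175 CPM of Saa2. Chil3, a chitinase-like protein of myeloid cells, and Sult1e1, the oestrogen sulfotransferase, were under 4 CPM in all CDDP+ACBP and ACBP libraries, and their effects differed by -8.03 and -6.77. Adcy1, an adenylate cyclase of brain, differed by -10.41, a value that rests in part on 56.8 CPM in ACBP replicate 4 and was -5.15 without it. CDDP replicate 5 also stood high for Adcy1, at 58.5 CPM, against 5.23 to 11.9 CPM in the other CDDP libraries.

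In the other direction stood globin genes of red cells. The erythroid list of 7 tested genes had a median log2 fold change of 0.11 under the ACBP pump, and of 0.74 without ACBP replicate 4, where globin levels were high. Hba-a1 was at 570, 551, 77.0, 595 and 321 CPM in CDDP+ACBP livers and at 267, 229, 249, 971 and 266 CPM in ACBP livers. The groups overlapped, with CDDP+ACBP replicate 3 the lowest and ACBP replicate 4 the highest. In CDDP livers it ranged from 1.04 to 1.84 CPM, against 157 to 291 CPM in PBS livers, and the effects differed by 7.46 ± 0.75 (edgeR adjusted p = 3.773e-07). Hba-a2, Hbb-bs and Hbb-bt differed by 8.20, 8.21 and 6.52, and the major urinary protein genes Mup12 and Mup-ps12, members of a family of near-identical copies, by 7.28 and 6.48.

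Dbi, the gene of the protein in the pump, was not called. It was at 1128, 903, 477, 475 and 787 CPM in CDDP+ACBP livers and at 649, 678, 479, 589 and 784 CPM in ACBP livers. The groups overlapped, and the log2 fold change was 0.25 ± 0.27 (edgeR adjusted p = 1), beside 0.39 under the PBS pump. A pump delivers protein, so the transcript does not report on it. The 6 genes with an acyl-CoA-binding domain that were tested had a median log2 fold change of -0.03 and 0 members past an unadjusted p of 0.05 with edgeR, and 0 were called by DESeq2 or limma voom.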

How the data were processed

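The series holds 30 RNA libraries of mouse liver in 6 groups of 5, and 4 groups are used here. The authors deposited raw read counts per gene, made with HISAT2 2.2.1, HTSeq 2.0.3 and the mm10 build, per the submitters' processing notes. The kit was strand-specific per the labels' protocols, but no source used here states the strand setting of the counting. The summary lines of the deposited table put 40.9 to 45.3% of reads of the 10 libraries in no feature; these 5 lines were left out. Of 48440 gene IDs, 48058 (99.2%) matched GENCODE vM21, the source of coordinates and types.

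From these counts, 1 edgeR 4.0.16 fit (R 4.3.3) was made over all 30 libraries, so that each gene has 1 spread from 24 residual degrees of freedom. It used TMM normalization, filterByExpr, group means with no covariate, the quasi-likelihood test and Benjamini-Hochberg adjustment over all 16304 genes tested. Contrasts were CDDP+ACBP minus ACBP, CDDP minus PBS, and the first minus the second. CPM use TMM library sizes, and the SE is the log2 fold change divided by the root of F. DESeq2 1.42.0 (Wald) and limma 3.58.1 (voom with quality weights) were alternatives, as were other filters, RLE scaling, a muscle covariate, and fits without single libraries or whole groups. The script was tested on simulated data. Precision is set by 5 libraries a group and by 13957380 to 18479134 reads on genes per library.

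Named genes are Dbi and Cdkn1a, then the 8 largest rises and falls among genes called at 5 CPM or more with no overlap and the same call without ACBP replicate 4 (2 rises and 6 falls passed), up to 4 called members a list, members of a described list, and the 6 largest differences between the effects each way. The members, the 55 gene lists and the tests were chosen with earlier results of these data known. Promoter windows are from the RefSeq table for GRCm38.p6.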

Additional observations from a re-analysis of the deposited data

Results flagged for a closer look

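In groups of 5, single libraries stood far from the others for 14 of the 76 sets of values examined, where chance flags about 1 in 20. These sets were of CDDP+ACBP and ACBP libraries, and the CDDP and PBS groups were not examined in this way. CDDP+ACBP replicate 3 was high for Gria3 (29.8 CPM) and Mdm2 (139 CPM), and CDDP+ACBP replicate 5 for Sult1e1 (3.69 CPM). ACBP replicate 4 was high for Hba-a1 (971 CPM), Hba-a2 (198 CPM), Hbb-bt (51 CPM), Adcy1 (56.8 CPM), Chil3 (0.543 CPM) and Rims3 (8.51 CPM). Its brain score, the mean log2 CPM of the brain markers, was 3.53. Brain score also set apart CDDP+ACBP replicate 2, at 1.36. ACBP replicate 2 was high for Saa1 (95.7 CPM) and Lcn2 (89 CPM), and ACBP replicate 5 for Gm9949 (0.184 CPM, with the others at 0).

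The cisplatin effect under the ACBP pump minus that under the PBS pump passed the edgeR test for 3216 genes. On the log2 scale the difference was -3.64 for Cdkn1a, -2.12 for Gria3 and -0.83 for C1qb. It was 8.21 for Hbb-bs, 8.2 for Hba-a2, 7.46 for Hba-a1, 6.52 for Hbb-bt, 7.28 for Mup12 and 6.48 for Mup-ps12. It was -10.41 for Adcy1, -8.03 for Chil3, -7.24 for Saa2, -6.77 for Sult1e1, -6.64 for Saa1 and -6.56 for Lcn2.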

How the results depend on the processing

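The main count of 21 genes called in CDDP+ACBP against ACBP was 20 with RLE scaling, 19 without a filter, 19 with a filter of 1 CPM in 5 libraries and 25 with the muscle covariate. It was 3 against a fold of at least 1.5, 91 with DESeq2 (26 higher and 65 lower, all 21 included) and 70 with limma voom (23 higher and 47 lower). When only the groups compared were fitted it was 2, of which only Eda2r was among the 21. Without muscle-rich libraries and ACBP replicate 4 it was 0, with 554 genes at an unadjusted edgeR p under 0.05. Of the fits chosen after seeing the data, that without the CDDP and PBS groups gave 26, and that of only the groups compared gave 1 without ACBP replicate 4 (Eda2r) and 1 without CDDP+ACBP replicate 3. Leaving out 1 library gave 5 to 39: 8, 11, 11 and 12 without ACBP replicates 2, 3, 4 and 5, 5 without CDDP+ACBP replicate 1, 5 without replicate 3, and 39 without replicate 4 or without CDDP replicate 5. For CDDP against PBS the count of 6756 was 2646 against a fold of at least 1.5 and 5897 to 7073 without 1 library. The difference between the effects, 3216 genes, was 825 against that fold, 1722 without muscle-rich libraries and ACBP replicate 4, and 2495 to 3855 without 1 library. The causes were not tested. No called gene changed direction. Eda2r kept its call in 31 of 32 alternatives, Gria3 in 28, Aen in 27, Csf1r in 26, C1qb in 25, Mdm2 in 21, and Slc11a1 in 10. No paired analysis was possible because the labels carry no replicate numbers shared between groups. Genes under 1 CPM rest on few reads, which limits what could be detected there.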
